A study of Mus musculus with 22 samples.

Results

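The levels of 10 genes of fibroblast growth factor (FGF) and ERK signalling were followed in mouse embryonic stem cells (ESCs): the ligand Fgf4, the ETS transcription factors Etv4 and Etv5, the feedback inhibitors Spry2, Spry4, Dusp6 and Spred1 and the immediate early transcription factors Egr1, Fos and Fosb. They were chosen by name with earlier results of these data known, so their counts beside all entries are a description, not independent support. All 10 were found among the 44749 entries (genes and repeat families) of the deposited count table and passed the filter on low counts in every fit. FGF4 is secreted by ESCs and binds FGF receptors, which signal through RAS, RAF and MEK to the kinase ERK. Active ERK induces immediate early genes within minutes and, more slowly, the Etv factors and the Sprouty, Spred and Dusp6 proteins, which dampen the same pathway. In ESCs, FGF-ERK signalling is known for moving cells out of the naive state and towards primitive endoderm.

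The 22 libraries of total RNA came from male ESCs grown without feeders in medium with serum and LIF. Of the Ythdc1-cKO cells, conditional knockouts of a nuclear reader of the RNA mark m6A, 4 libraries were treated with 4OHT and 4 with DMSO. 4OHT is the ligand used to activate inducible Cre, and the labels do not say which Cre the cells carry. The Mettl3 set has 2 Mettl3-KO and 2 Mettl3-WT libraries, and Mettl3 encodes the catalytic subunit of the m6A writer. Ythdc1-cKO cells that were also Dux-Het (heterozygous for Dux, the activator of genes of the two-cell embryo) or Dux-KO gave 2 libraries under 4OHT and 2 under DMSO per genotype. A further Ythdc1-cKO pair carries no Dux label, with a single library for 4OHT and for DMSO. The first 8 libraries come from 2 ESC lines, but their columns do not name the line, so both lines were pooled. The labels do not call the replicates separate cultures, so a p-value here weighs a difference against the spread of these libraries alone, which may be technical.

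Library totals ran from 24.96 to 54.14 M counts. Ythdc1 transcripts fell by 0.41 on the log2 scale under 4OHT in the main Ythdc1-cKO set (edgeR's quasi-likelihood test, adjusted p = 0.00064). They did not pass in the Dux-Het set (-0.28, adjusted p = 0.456) or the Dux-KO set (-0.09, adjusted p = 0.843), in both of which the treatments overlapped. Mettl3 stood at 14.5 and 28.5 CPM (counts scaled to library size) in the libraries labelled Mettl3-KO, against 28.7 and 29.9 CPM in those labelled Mettl3-WT. Ythdc1 was higher in Mettl3-KO, with a mean of 145 CPM against 82.1 CPM in Mettl3-WT (log2 fold change 0.82, adjusted p = 0.000236, edgeR). Which exons were deleted in either gene is not stated in the labels, so transcript counts may include RNA that lacks them, and group names are used as the labels give them. The ESC markers were present: a list of 9, with Pou5f1, Sox2 and Nanog, summed to 1258 to 2570 CPM over all libraries.

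The main Ythdc1-cKO set asked what 4OHT does to these genes (n = 4 each). Here the ligand and the feedback genes went opposite ways: Fgf4 fell 2.11-fold, while Etv4 rose 3.35-fold, Spry4 3.30-fold and Dusp6 2.03-fold. The immediate early genes Fos and Fosb fell 2.73-fold and 2.31-fold. In all, 6 members rose, 3 fell and Egr1 did not pass, in a comparison where 45.1% of 24385 entries were called (23.7% higher, 21.4% lower). A call alone is therefore common in this comparison, and the sizes and the separate libraries are given below. The members' median log2 fold change was 0.50, beside 0.02 over all entries. The libraries of the 2 treatments did not overlap for 34.3% of 31864 entries. Among the members 6 lay higher under 4OHT, 3 lay lower and 1 overlapped.

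Fgf4 (ENSMUSG00000050917.5, chromosome 7, 144847367 to 144865243 on the plus strand, mm10) encodes the FGF ligand made by the ESCs themselves. Its level was 27.3, 29.3, 30.5 and 26.5 CPM in the 4OHT libraries, against 62.2, 58.4, 71.0 and 54.5 CPM in the DMSO libraries. Every 4OHT library lay below every DMSO library, and the means were 28.4 ± 1.81 and 61.5 ± 7.06 CPM (SD). The log2 fold change was -1.07 (SE 0.0842, edgeR, adjusted p = 5.23e-08).

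Etv4 (chromosome 11, 101769742 to 101785371, minus strand), an ETS factor that ERK signalling induces, had 195, 189, 184 and 173 CPM under 4OHT, against 87.5, 56.7, 39.6 and 43.8 CPM under DMSO. The DMSO libraries were spread over more than the 4OHT libraries, with the first the highest, and the treatments did not overlap (log2 fold change 1.75, SE 0.166, adjusted p = 4.34e-07, edgeR). Its close relative Etv5 (chromosome 16, 22381309 to 22439719, minus strand) changed far less. It lay at 352 to 386 CPM under 4OHT and at 278 to 324 CPM under DMSO, a rise of 1.26-fold (adjusted p = 0.000169 by edgeR).

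Among the feedback inhibitors, Spry4 (chromosome 18, 38586247 to 38601415, minus strand), a Sprouty protein that blocks receptor signals upstream of ERK, had 219, 186, 173 and 152 CPM under 4OHT. Under DMSO it had 85.7, 52.8, 45.1 and 44.3 CPM. The lowest 4OHT library was thus well above the highest DMSO library (log2 fold change 1.72, SE 0.163, adjusted p = 3.91e-07, edgeR). Small RNA genes Gm27369 and Gm27804 lie within Spry4 on the other strand, and the labels do not state whether counting used strand, so their reads and those of Spry4 may not have been told apart. No other member overlaps an annotated gene.

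Dusp6 (chromosome 10, 99263231 to 99267489, plus strand), the phosphatase that inactivates ERK in the cytoplasm, had 146, 141, 134 and 145 CPM under 4OHT, against 99.0, 74.1, 55.0 and 59.2 CPM under DMSO. The groups did not overlap (log2 fold change 1.02, SE 0.125, adjusted p = 6.29e-06, edgeR). Spry2 (chromosome 14, 105891947 to 105896819, minus strand), the other Sprouty member, had 74.2 to 88.2 CPM under 4OHT and 38.5 to 63.5 CPM under DMSO, where the first library was apart from the other 3 at 38.5 to 42.3 CPM. It rose 1.76-fold (adjusted p = 4.05e-05). Spred1 (chromosome 2, 117121374 to 117182279, plus strand), which recruits neurofibromin to switch RAS off, had 112 to 133 CPM under 4OHT and 71.7 to 92.9 CPM under DMSO and rose 1.59-fold (adjusted p = 3.56e-06). The first DMSO library had the highest level of the group for Etv4, Etv5 and all 4 feedback inhibitors, and without it all 6 calls stood, with Etv4 at 2.02 and Spry4 at 1.97 on the log2 scale.

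**Figure D1:**
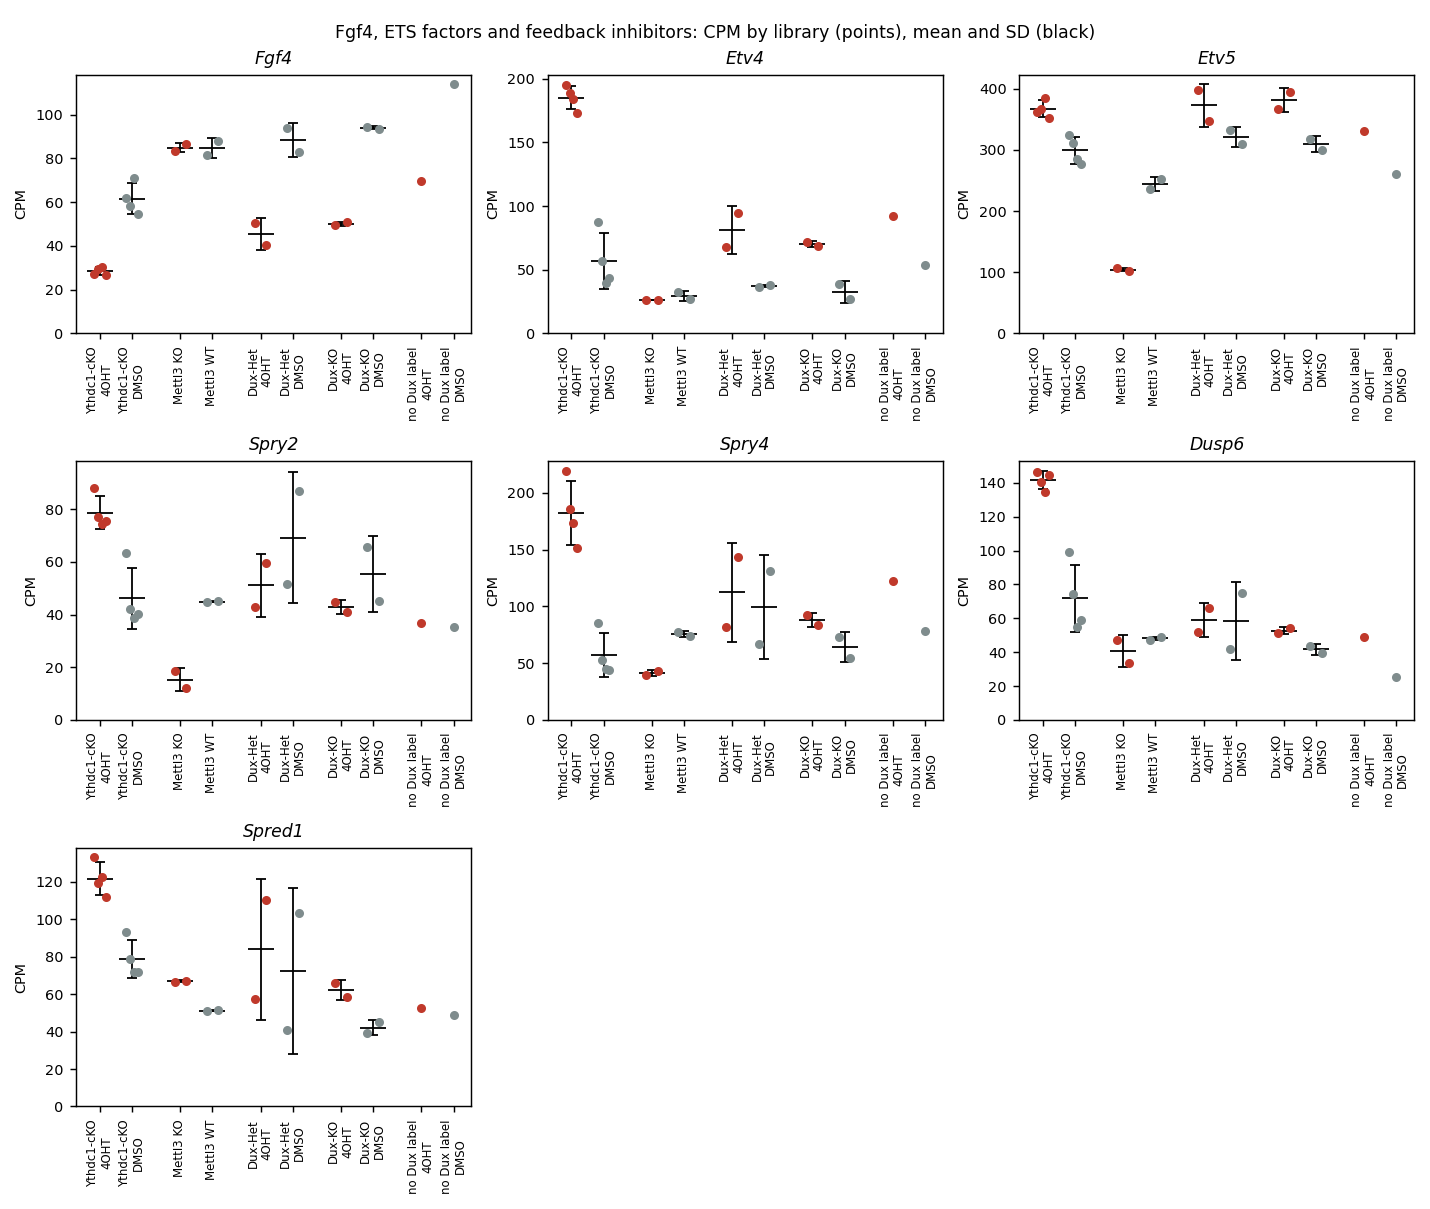
CPM of Fgf4, the ETS factors and the feedback inhibitors in every library (points, linear axis from 0), with the group mean and SD in black; red points are 4OHT or Mettl3 KO, grey points DMSO or Mettl3 WT, and the pair with no Dux label has 1 library each. The Fgf4 4OHT points lie at 26.5 to 30.5 CPM, below the DMSO points at 54.5 to 71.0 CPM, and Etv5 and Spry2 are lowest in Mettl3 KO.

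The immediate early genes did not follow the feedback genes in this set. Fos (chromosome 12, 85473890 to 85477273, plus strand), a subunit of the AP-1 transcription factor, had 18.9, 32.5, 31.2 and 33.1 CPM under 4OHT, against 63.0, 79.7, 88.0 and 92.8 CPM under DMSO. Fosb (chromosome 7, 19302696 to 19310051, minus strand), a relative of Fos that also joins AP-1, had 42.3, 73.2, 76.5 and 73.1 CPM under 4OHT, against 139, 164, 146 and 178 CPM under DMSO. In both genes every 4OHT library was below every DMSO library, and the first 4OHT library was the lowest. Fos fell by 1.45 on the log2 scale (SE 0.15, adjusted p = 1.04e-06 by edgeR) and Fosb by 1.21 (SE 0.139, adjusted p = 3.26e-06).

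The Fos and Fosb promoters are shown because both genes fell in the main set and rose in both Dux sets described below. The letters are the 250 bases before the RefSeq start, 5′ to 3′ on the gene's strand (RefSeq, GRCm38.p6), with TGACG, the core of the site bound by CREB and ATF factors, and TATAAA, the TATA box, in capitals. Fos lies at chr12:85473640-85473889 on the plus strand and Fosb at chr7:19310046-19310295 on the minus strand.
Fos: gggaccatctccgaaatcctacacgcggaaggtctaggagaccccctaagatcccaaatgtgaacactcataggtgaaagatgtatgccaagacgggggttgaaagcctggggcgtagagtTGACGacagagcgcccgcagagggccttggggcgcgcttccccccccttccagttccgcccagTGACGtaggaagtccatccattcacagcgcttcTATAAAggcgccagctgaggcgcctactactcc
Fosb: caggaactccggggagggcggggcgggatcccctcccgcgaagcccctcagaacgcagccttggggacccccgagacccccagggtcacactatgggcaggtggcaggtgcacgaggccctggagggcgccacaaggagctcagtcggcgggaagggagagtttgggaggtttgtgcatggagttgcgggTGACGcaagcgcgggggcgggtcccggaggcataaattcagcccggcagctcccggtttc
TGACG stands 129 and 66 bases before the Fos start and 60 bases before the Fosb start. It was sought on both strands, where 17.8% of 32851 promoters of the same length hold it, and TATAAA, held by 12.4%, was found in Fos alone among the members. The RefSeq table matched 8 promoters of 7 members (not Etv4, Spry4 or Egr1). GGGCGG, the Sp1 motif (32.7% of promoters), was in 5 of those genes, namely Etv5, Fgf4, Fos, Fosb and Spred1. The full TGACGTCA, which contains TGACG, the AP-1 motif TGANTCA, the ETS motif CCGGAA and the CArG box of serum response factor were in none of these windows. A match is a description of letters, not of a bound site.

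Egr1 (chromosome 18, 34859823 to 34864984, plus strand), a zinc finger factor that ERK induces within minutes, had 59.0, 68.9, 83.8 and 57.0 CPM under 4OHT, against 75.9, 81.5, 81.6 and 84.6 CPM under DMSO. The third 4OHT library lay inside the DMSO range, and the difference of -0.23 in log2 did not pass (approximate 95% interval -0.42 to -0.04, adjusted p = 0.0684, edgeR). It passed with the authors' library factors (adjusted p = 0.0494), without the filter on low counts (0.00667), without the first DMSO library (0.0443) and without the third 4OHT library (-0.35, adjusted p = 0.0019).

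The Mettl3 set asked whether loss of the writer moves the same genes (n = 2 each). Here Fgf4 did not pass, and the clear changes were falls of Etv5 and the Sprouty genes. 3 members fell, Spred1 rose and 6 did not pass, where 31.2% of 23977 entries were called (14.9% lower, 16.4% higher), so the members' count of 4 is near the background. The members' median log2 fold change was -0.26, beside 0.02 over all entries.

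Etv5 had 107 and 102 CPM in Mettl3-KO cells, against 236 and 252 CPM in Mettl3-WT cells, a 2.33-fold fall (log2 fold change -1.22, SE 0.08, adjusted p = 2.17e-05, edgeR). Spry2 had 18.4 and 12.2 CPM in KO cells, against 44.7 and 45.2 CPM in WT cells, and fell 2.92-fold (log2 fold change -1.55, SE 0.172, edgeR, adjusted p = 0.000239). Spry4 had 39.4 and 43.4 CPM in KO cells, against 77.7 and 74.2 CPM in WT cells, and fell 1.83-fold (adjusted p = 0.000253). In each of these genes both KO libraries lay below both WT libraries, including the KO library with 28.5 CPM of Mettl3. With 2 libraries a group this is common, as 59.6% of 31864 entries did not overlap. Among the members 1 lay higher in KO cells, 6 lay lower and 3 overlapped.

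Spred1 went the other way, with 66.4 and 67.2 CPM in KO cells and 51.0 and 51.5 CPM in WT cells (1.31-fold higher, adjusted p = 0.0104, edgeR). Without the first WT library the calls of Spry2 (adjusted p = 0.059), Spry4 (0.0615) and Spred1 (0.194) were lost, and without the second that of Spred1 (0.173), while Etv5 stayed called under each library left out (adjusted p at most 0.0418). Dusp6 had 47.2 and 33.8 CPM in KO cells, against 47.5 and 49.0 CPM in WT cells, and did not pass (-0.25, adjusted p = 0.238), except without the first KO library (-0.51, adjusted p = 2.55e-06).

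Fgf4 had 83.5 and 86.4 CPM in KO cells, against 81.7 and 88.0 CPM in WT cells, and its groups overlapped (log2 fold change 0.00, approximate 95% interval -0.17 to 0.18). Etv4 also did not pass (-0.17, adjusted p = 0.335). Fos was low in both genotypes, at 1.69 and 1.40 CPM in KO cells and 1.30 and 2.44 CPM in WT cells. Fosb was lower still, at 0.281 and 0.280 CPM in KO cells and 0.688 and 0.401 CPM in WT cells. With so few counts the approximate intervals of the log2 change were wide, -0.998 to 0.44 for Fos and -2.11 to 0.25 for Fosb. Egr1 had 15.8 and 16.6 CPM in KO cells and 18.9 and 15.6 CPM in WT cells (-0.09, adjusted p = 0.686).

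In one fit of both sets (12 libraries), the Ythdc1 effect minus the Mettl3 effect was tested directly. 6 of the 10 members differed, 5 in the positive direction and 1 in the negative, where 25.3% of 28260 entries did (13.7% and 11.6%). The difference was 2.64 for Spry4 (SE 0.268), 2.40 for Spry2 (SE 0.236), 1.959 for Etv4, 1.60 for Etv5 and 1.31 for Dusp6, and -1.04 for Fgf4 (SE 0.134), all in log2 (largest adjusted p = 0.000263, edgeR). For Etv5, Spry2 and Spry4 both effects were called and had opposite signs. Fos differed by -1.12 and missed the threshold (adjusted p = 0.0547), which it passed with DESeq2 (0.0398) and with the authors' library factors (0.045). Spred1 (0.32, adjusted p = 0.0794), Egr1 (-0.10, 0.752) and Fosb (-0.24, 0.858) did not pass either.

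The Dux genotypes asked whether the response to 4OHT depends on Dux. In both genotypes Fgf4 fell and Etv4 rose, as in the main set. Egr1, Fos and Fosb rose in both, whereas Fos and Fosb fell in the main set. 5 members were called in each genotype, 4 higher and 1 lower, where 9.34% of 29322 entries were called in Dux-Het (4.99% higher, 4.34% lower) and 9.86% in Dux-KO (5.5% higher, 4.36% lower). The treatments did not overlap for 51.3% of 31864 entries in Dux-Het and 57.7% in Dux-KO. Of the members, 5 lay higher under 4OHT, 1 lay lower and 4 overlapped in Dux-Het. In Dux-KO 8 lay higher, 2 lay lower and 0 overlapped.

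Fosb had 23.3 and 19.7 CPM under 4OHT in Dux-Het cells, against 0.730 and 0.692 CPM under DMSO. In Dux-KO cells it had 10.98 and 6.42 CPM under 4OHT, against 0.673 and 0.634 CPM under DMSO. All 4 DMSO libraries were below 1 CPM and no 4OHT library came near them. Fosb rose 30.2-fold in Dux-Het (log2 fold change 4.92, SE 0.314, adjusted p = 2.41e-05, edgeR) and 13.3-fold in Dux-KO (3.73, SE 0.311, adjusted p = 7.68e-05).

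Fos had 19.0 and 16.2 CPM under 4OHT in Dux-Het cells, against 3.32 and 1.52 CPM under DMSO, and 12.6 and 11.7 CPM under 4OHT in Dux-KO cells, against 1.95 and 2.66 CPM under DMSO. The groups were apart in both genotypes, with rises of 7.27-fold (adjusted p = 0.000545) and 5.19-fold (adjusted p = 0.00154, edgeR). Egr1 had 73.9 and 38.2 CPM under 4OHT in Dux-Het cells, against 25.5 and 15.9 CPM under DMSO. Its Dux-KO values were 71.9 and 102 CPM under 4OHT, against 21.6 and 20.7 CPM under DMSO. It rose 2.71-fold in Dux-Het (adjusted p = 0.016), a call lost without the first 4OHT library (0.0869) or the second DMSO library (0.0693), and 4.11-fold in Dux-KO (adjusted p = 0.00314).

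**Figure D2:**
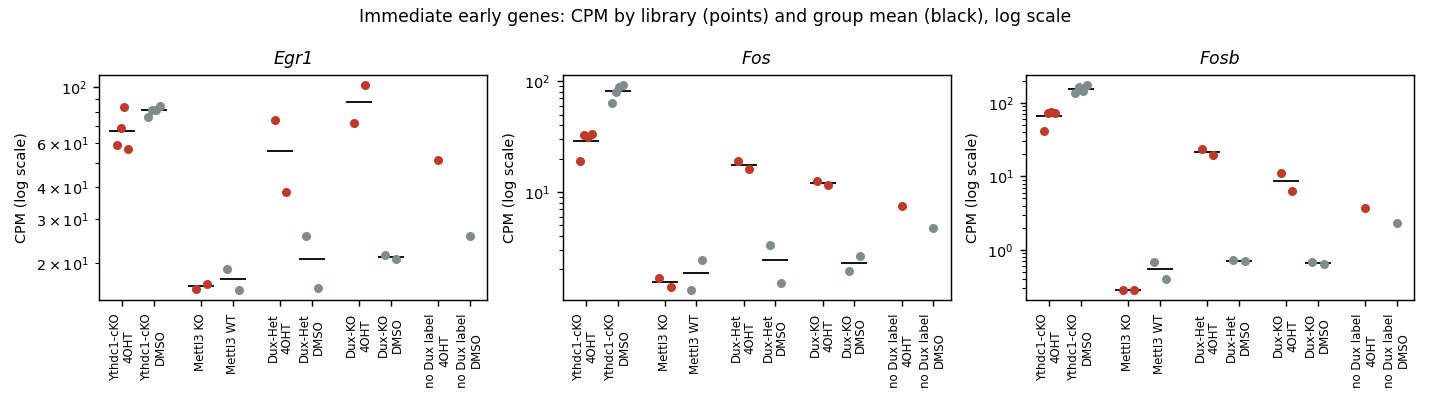
CPM of Egr1, Fos and Fosb on a logarithmic axis, each point 1 library and the black line the group mean; red points are 4OHT or Mettl3 KO, grey points DMSO or Mettl3 WT. In the main Ythdc1-cKO set the red points of Fos and Fosb lie below the grey ones, while in the Dux-Het and Dux-KO sets they lie above them.

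Fgf4 had 50.6 and 40.3 CPM under 4OHT in Dux-Het cells, against 93.9 and 82.9 CPM under DMSO, and 49.6 and 50.9 CPM under 4OHT in Dux-KO cells, against 94.6 and 93.5 CPM under DMSO. The treatments were apart in both genotypes, and Fgf4 fell 1.94-fold (adjusted p = 0.00374) and 1.88-fold (adjusted p = 0.00491, edgeR), close in size to the 2.11-fold of the main set. In Dux-KO the call was lost without either 4OHT library, in fits that leave 1 library in that group. The log2 change of Fgf4 there was -0.92 and -0.93, against -0.91 with all libraries. Etv4 had 67.6 and 94.8 CPM under 4OHT in Dux-Het cells, against 36.6 and 38.1 CPM under DMSO, and 71.9 and 68.5 CPM under 4OHT in Dux-KO cells, against 38.7 and 26.7 CPM under DMSO. It rose 2.18-fold (adjusted p = 0.00757) and 2.15-fold (adjusted p = 0.00892). The Dux-Het call of Etv4 was lost without the second 4OHT library (0.0573). Its Dux-KO call was lost without the first 4OHT library (0.0981), the second (0.076) or the second DMSO library (0.0509).

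Etv5 and the 4 feedback inhibitors passed in neither genotype in the main edgeR fit, although Spred1 passed in Dux-KO without the filter on low counts (adjusted p = 0.0249). With a block for library number within each Dux genotype, added after seeing the data, Spry4 (adjusted p = 0.0144) and Spred1 (0.00715) passed in Dux-KO by edgeR. In the main fit the log2 changes of Etv5 and the 4 inhibitors ran from -0.43 (Spry2) to 0.22 (Etv5) in Dux-Het. In Dux-KO they ran from -0.38 (Spry2) to 0.56 (Spred1). The spread was wide, and in Dux-Het it followed the library number: the second library was above the first under both treatments for Spry2 (1.39 and 1.68 times under 4OHT and DMSO), Spry4 (1.75 and 1.97), Dusp6 (1.28 and 1.78) and Spred1 (1.93 and 2.52). Spry4 thus had 81.7 and 143 CPM under 4OHT, against 66.8 and 132 CPM under DMSO. The labels do not state what the numbers mark. In Dux-KO cells Spry4 had 92.2 and 83.3 CPM under 4OHT, against 73.3 and 54.7 CPM under DMSO, and the approximate 95% interval of its log2 change was -0.16 to 1.07.

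**Figure D3:**
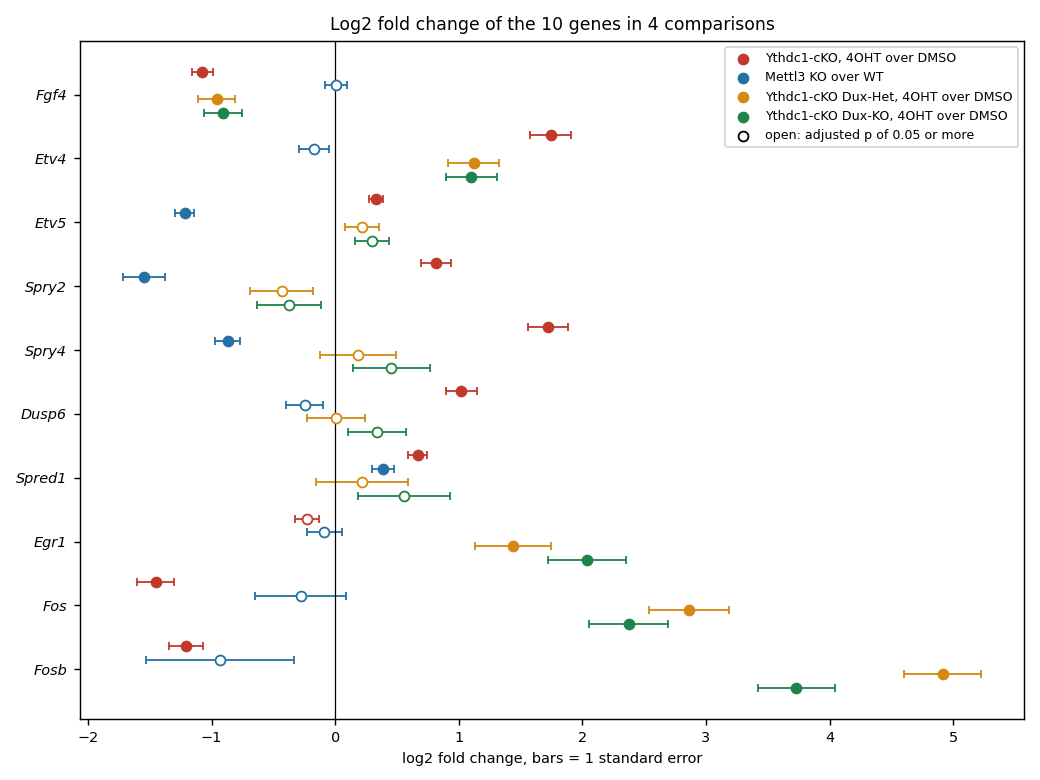
Log2 fold change of each gene with 1 standard error in the 4 comparisons (red, main Ythdc1-cKO set; blue, Mettl3; orange, Dux-Het; green, Dux-KO), open symbols where the adjusted p was 0.05 or more. Fgf4 lies near -1 in the 3 comparisons of 4OHT with DMSO and at 0.00 for Mettl3, and Fos and Fosb stand on opposite sides of 0 in the main set and in the Dux sets.

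Dux-KO cells were then set against Dux-Het cells, in comparisons that share libraries with those above. By edgeR no member was called under DMSO (0.0341% of entries called), under 4OHT (0.276%, of which 0.00341% higher and 0.273% lower) or in the difference of the 4OHT effects (0%). At an unadjusted p under 0.05 the counts of members were 0, 1 and 1, and DESeq2 called 0, 1 and 0, in the same order. The closest was Fosb under 4OHT, 2.47-fold lower in Dux-KO (log2 difference -1.31, SE 0.254, adjusted p = 0.0939), which DESeq2 called (adjusted p = 0.00286). Both Dux-KO libraries were below both Dux-Het libraries there, in a contrast where 32% of 31864 entries did not overlap. The test of the difference between the 2 effects gave -1.19 for Fosb (approximate 95% interval -2.03 to -0.34, adjusted p = 1), so no difference between the Dux genotypes in the response of any member was detectable with 2 libraries a group. For Fgf4 that difference was 0.05 (approximate 95% interval -0.37 to 0.47). Over the same contrast under 4OHT, 8 of 9 tested two-cell-like markers were lower in Dux-KO, with sums of 0.0597 to 0.0901 CPM there and 51.2 to 62.7 CPM in Dux-Het. The test of the difference of effects called 0 of these 9 markers. Zscan4c, for example, had a Dux-KO log2 change of 0 and a standard error of 4682 for the difference, so such markers could not be called. Their lack of calls is therefore no measure of what the test can detect in the members. With 2 libraries a group, a lack of calls for the members does not decide dependence on Dux.

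In the pair with no Dux label (1 library each, no replicate check) Fgf4 was at 69.7 CPM under 4OHT (exact Poisson 95% interval 67.3 to 72.2, counting error only) and 114 CPM under DMSO (111 to 117). The 9 other members were higher under 4OHT, from 1.04-fold for Spry2 to 2.00-fold for Egr1 (51.4 and 25.5 CPM under 4OHT and DMSO). Fos was at 7.52 CPM under 4OHT (6.74 to 8.37) and 4.78 CPM under DMSO (4.11 to 5.52), and Fosb at 3.71 and 2.30 CPM. 6 members were over 1.5-fold higher, as were 10.7% of 31864 entries. These 2 libraries thus had the sign of the Dux sets for Fos and Fosb, with smaller ratios.

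The main set was next compared with the mean of both Dux-set effects in one fit of 18 libraries, a comparison added after the Fos and Fosb values were seen. 5 members differed, 2 with a higher and 3 with a lower effect in the main set, where 1.38% of 31020 entries did (0.854% higher, 0.522% lower). The main-set effect was lower by 5.51 in log2 for Fosb (SE 0.276, adjusted p = 2.59e-10), by 4.04 for Fos (SE 0.276, adjusted p = 4.74e-08) and by 1.95 for Egr1 (SE 0.246, adjusted p = 0.000644, edgeR). It was higher for Spry4 (1.42, SE 0.3, adjusted p = 0.02) and Spry2 (1.23, SE 0.233, adjusted p = 0.0106). The Spry4 call was lost without the third main DMSO library (adjusted p = 0.0726), the fourth (0.0524), the first Dux-KO DMSO library (0.0813) or the second Dux-KO 4OHT library (0.063), and the Spry2 call without the first Dux-KO DMSO library (0.0512). Dusp6 was at 0.86 (adjusted p = 0.0592, and 0.0148 by DESeq2), while Fgf4 differed by -0.12 (approximate 95% interval -0.38 to 0.14) and did not pass.

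**Figure D4:**
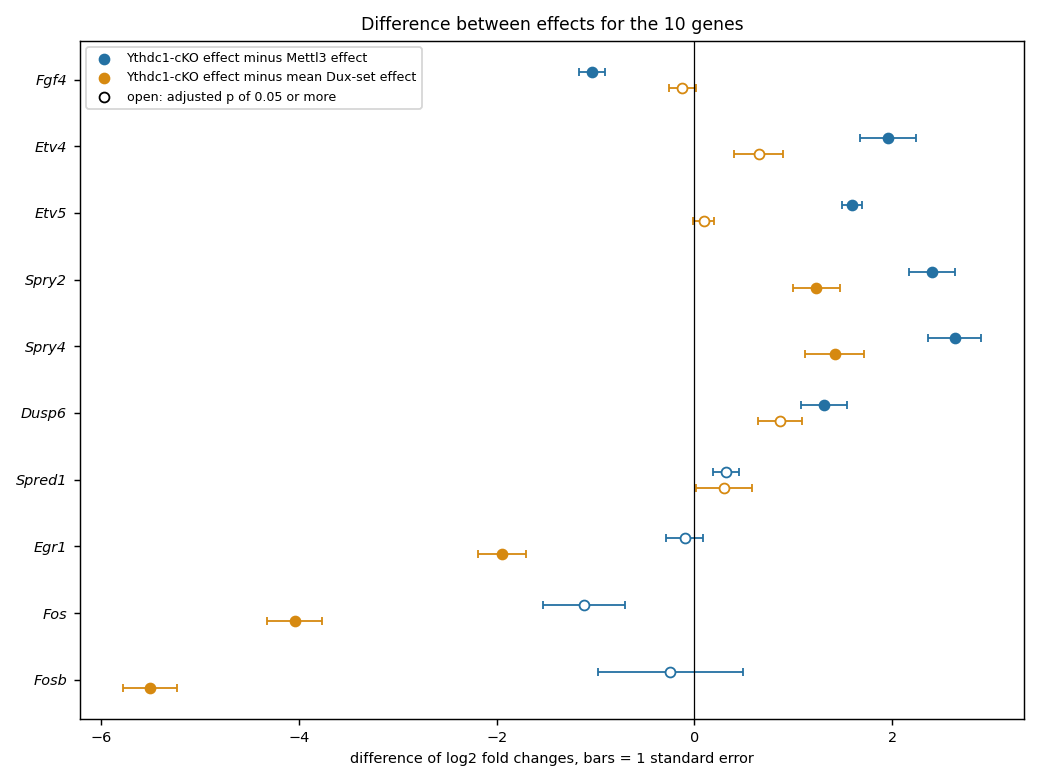
Difference between effects for each gene, in log2 with 1 standard error: main Ythdc1-cKO effect minus Mettl3 effect (blue) and minus the mean Dux-set effect (orange), open symbols where the adjusted p was 0.05 or more. Fosb and Fos lie at -5.51 and -4.04 against the Dux sets, and Spry4 and Spry2 lie above 0 in both.

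The opposite signs went with different levels under DMSO. Fos averaged 80.9 ± 13.1 CPM in the main DMSO group (SD, n = 4), against 2.42 ± 1.27 CPM in Dux-Het and 2.31 ± 0.501 CPM in Dux-KO under DMSO (n = 2 each). Under 4OHT it averaged 28.9 ± 6.73, 17.6 ± 1.93 and 12.1 ± 0.642 CPM in the same 3 backgrounds. Fosb averaged 157 ± 17.3 CPM in the main DMSO group, against 0.711 and 0.653 CPM in the Dux sets and 0.544 CPM in Mettl3-WT. Egr1 averaged 80.9 ± 3.62 CPM under DMSO in the main set and 20.7 ± 6.79 and 21.2 ± 0.671 CPM in the Dux sets, but 67.2 ± 12.2, 56.1 ± 25.3 and 87.1 ± 21.5 CPM under 4OHT. Under DMSO, Fos, Fosb and Egr1 were thus high in the main set and low in both Dux sets. Low levels were not particular to the Dux sets. The single DMSO library with no Dux label had 4.78 CPM of Fos, 2.30 CPM of Fosb and 25.5 CPM of Egr1. In Mettl3-WT, Fos averaged 1.87 CPM and Egr1 17.2 CPM. The labels do not state the preparation date or passage of the sets, so the set and any such difference cannot be told apart.

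Per kilobase of annotated exon, Etv5 was the highest of the 10 genes in 9 of 10 groups (89.5 and 73.0 CPM per kb under 4OHT and DMSO in the main set). In Mettl3-KO it was second, at 25.5 CPM per kb, after Fgf4 at 26.6. Fos ranked second under DMSO in the main set (34.4 CPM per kb) and eighth under 4OHT (12.3 CPM per kb), and in each of the 8 other groups Fosb was last and Fos next to last. Fgf4 was last under 4OHT in the main set (8.90 CPM per kb) and sixth under DMSO (19.3 CPM per kb).

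Other genes of the pathway were counted from lists chosen by role, with earlier results of these data known. Over all entries, 23.7% rose and 21.4% fell in the main set, and 16.4% and 14.9% in Mettl3-KO. In Dux-Het 4.99% rose and 4.34% fell, and in Dux-KO 5.5% and 4.36%. Many list counts lie near these shares, and none was tested as a property of its list. Among FGF ligands other than Fgf4, 2 rose and 6 fell of 15 tested in the main set. Fgf8, a ligand of gastrulation, was 8.00-fold lower (log2 fold change -3.00, SE 0.509, edgeR, adjusted p = 0.00015), Fgf17 3.59-fold lower and Fgf5, a marker of primed epiblast, 3.15-fold lower. Fgf8 and Fgf17 also fell in Dux-Het (7.62-fold and 3.04-fold) and in Dux-KO (5.89-fold and 2.89-fold), where 3 of 17 ligands fell each time, Fgf15 being the other. In Mettl3-KO 1 ligand rose and 3 fell of 12, with Fgf11 5.67-fold lower, Fgf17 2.02-fold lower and Fgf18 2.89-fold higher. Some of these levels were near the floor. Fgf5 averaged under 1 CPM in both main groups, and Fgf8 did under 4OHT in the main, Dux-Het and Dux-KO sets. Fgf11 averaged under 1 CPM in Mettl3-KO and Fgf18 in Mettl3-WT.

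Of 7 FGF receptors and co-receptors, 3 rose and none fell in the main set by edgeR. Fgfr4 rose 3.58-fold (adjusted p = 3.46e-07), Fgfr2 1.70-fold and Fgfr1, the main receptor of naive ESCs, 1.23-fold. Fgfr4 also rose in Dux-Het (2.52-fold) and Dux-KO (2.30-fold), and Fgfr2 rose in Dux-KO too (1.70-fold). In Mettl3-KO the 3 that rose were others: the co-receptors Klb (6.502-fold) and Kl (5.22-fold) and Fgfrl1 (2.03-fold), a receptor without a kinase domain. Kl averaged under 1 CPM in both Mettl3 groups, and Klb did in Mettl3-WT.

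Of 22 RAS-ERK signal transducers, 4 rose and 9 fell in the main set. Mapk3, which encodes ERK1, fell 2.04-fold (adjusted p = 1.26e-08), and the kinase gene Braf fell 1.45-fold. Mapk3 also fell in Dux-Het (1.61-fold) and Dux-KO (1.58-fold), each time with Map2k1, which encodes the ERK kinase MEK1 (1.52-fold and 1.56-fold). These were the only called transducers in Dux-Het, while in Dux-KO the adaptor gene Frs3 rose 1.82-fold (adjusted p = 0.0437). In Mettl3-KO 5 rose and 7 fell, with the adaptor genes Gab1 1.97-fold lower and Frs2 1.92-fold higher and the exchange factor gene Sos2 1.83-fold higher.

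Of 13 other ERK feedback inhibitors, 5 rose and 3 fell in the main set. Dusp4 and Dusp5, nuclear ERK phosphatases, rose 3.08-fold (adjusted p = 1.52e-09) and 1.90-fold, while Dusp7, a cytoplasmic one, fell 1.72-fold. Dusp4 also rose and Dusp7 fell in Dux-Het (1.79-fold and 2.03-fold) and Dux-KO (1.70-fold and 1.72-fold). In Mettl3-KO 5 of 12 rose and 2 fell, and Dusp7 was among those that rose (1.82-fold), with Il17rd (1.65-fold) and Dusp5 (1.56-fold).

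Of 20 other immediate early and ERK-responsive genes tested in the main set, 11 rose and 2 fell, with a list median of 0.56 in log2 beside 0.02 over all entries. The AP-1 gene Fosl1 rose 6.70-fold (adjusted p = 2.58e-08), Phlda1 3.34-fold and the stress-responsive Atf3 2.79-fold. The fall of Fos and Fosb was thus not shared by Fosl1. In the Dux sets 4 of 21 rose in each genotype, among them Egr2 (4.08-fold and 4.01-fold in Dux-Het and Dux-KO) and Btg2 (3.24-fold and 3.19-fold), with Jun 3.12-fold higher in Dux-Het and Fosl1 2.83-fold higher in Dux-KO. Under DMSO, Egr2 averaged under 1 CPM in both Dux genotypes, and Fosl1 did in Dux-KO. In Dux-Het 1 gene fell and in Dux-KO 2 did. In Mettl3-KO 2 of 19 rose and 4 fell, led by Ier3 (3.73-fold lower), Ier2 (2.41-fold lower) and Myc (1.91-fold lower).

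**Figure D5:**
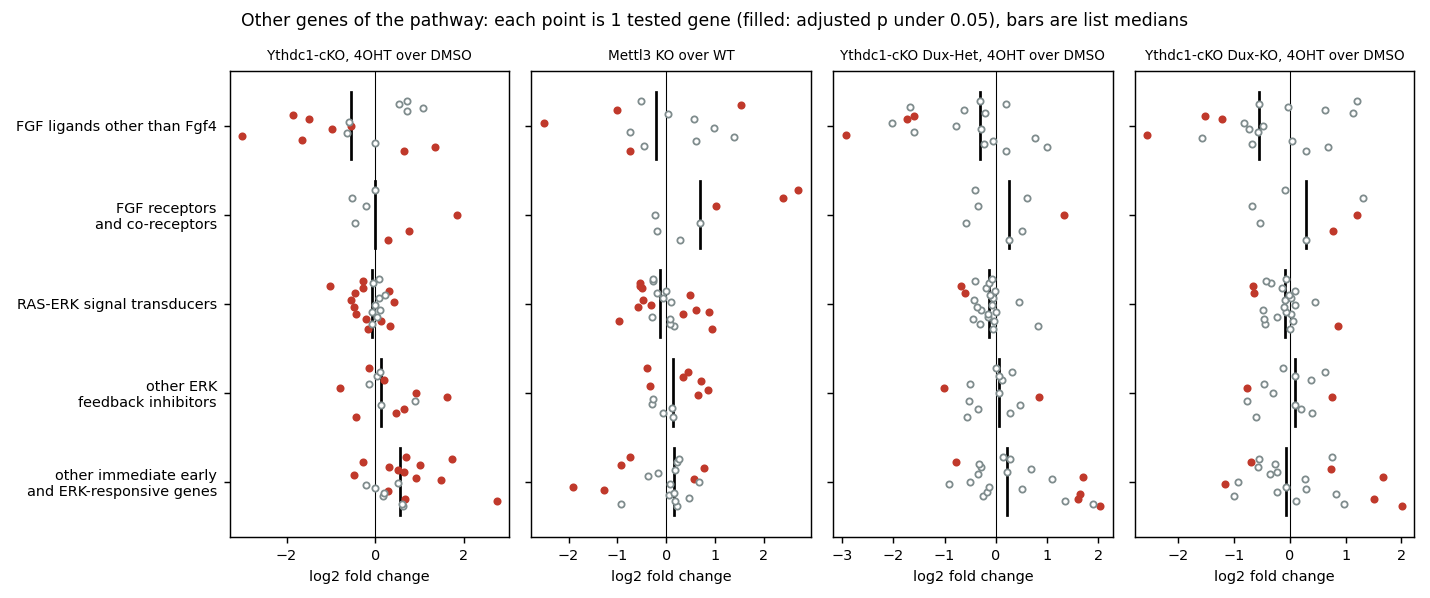
Log2 fold change of every tested gene of the 5 pathway lists in the 4 comparisons (1 point a gene, filled red where the adjusted p was under 0.05, black bars the list medians, separate horizontal scales). In the main set the other immediate early genes lie mostly right of 0, with a median of 0.56, and the ligands mostly left of it, with a median of -0.53.

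Between the effects of the main set and Mettl3-KO, 7 of 21 other immediate early genes differed, where 25.3% of 28260 entries did. All 7 were higher in the main set, as were 13.7% of entries, led by Fosl1 (3.70 in log2), Myc (1.98) and Ier3 (1.74). Fosl1 averaged under 1 CPM in Mettl3-KO. Among the feedback inhibitors Dusp4 (1.93) and Dusp7 (-1.61) differed most, among receptors Fgfr4 (2.11), Fgfrl1 (-1.18) and Fgfr2 (1.00), and among transducers Gab1 (1.16), Frs2 (-1.06) and Sos2 (-0.89). Against the mean Dux-set effect, Dusp5 (1.07) and Dusp4 (0.84) and the early genes Phlda1 (1.89), Myc (1.32) and Fosl2 (1.30) were higher in the main set.

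Markers of other cell states were followed in the same comparisons, so the shares over all entries were those given for the pathway lists. In the main set these were 23.7% higher and 21.4% lower, and in Mettl3-KO 16.4% and 14.9%. In the main set 10 of 13 primitive endoderm markers rose and none fell, with sums of 1014 to 1384 CPM under 4OHT and 751 to 908 CPM under DMSO. In Mettl3-KO 5 of 12 rose and none fell, with sums of 753 to 908 CPM in KO cells and 561 to 573 CPM in WT cells. In Dux-Het 2 of 13 rose and in Dux-KO 1 did.

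All 9 tested two-cell-like markers rose in the main set, with sums of 86.3 to 180.0 CPM under 4OHT and 7.49 to 29.7 CPM under DMSO. In Mettl3-KO all 8 tested rose, with sums of 97.1 to 105 CPM in KO cells and 0.968 to 1.49 CPM in WT cells. In Dux-Het 8 of 9 rose. In Dux-KO cells the two-cell-like sums were under 0.1 CPM with both treatments, with 8 and 9 of 10 markers at 0 under 4OHT and DMSO.

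Of 9 ESC markers 5 fell and none rose in the main set, with sums of 1258 to 1543 CPM under 4OHT and 1892 to 2170 CPM under DMSO. In Dux-Het 3 fell and in Dux-KO 2 did, Nanog and Zfp42 in both. In Mettl3-KO 3 rose, Nanog among them, and 3 fell. In bulk RNA, fewer cells of a type and less RNA per cell cannot be told apart.

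The 8 heat shock and handling-stress genes moved both ways in the main set. Hspa1a rose 1.65-fold, Hspa1b 1.56-fold and Hspb1 2.02-fold, while Hspa8, Hsp90aa1 and Hspe1 fell 1.35-fold, 1.44-fold and 1.28-fold. The list's sums were 2647 to 3060 CPM under 4OHT and 3529 to 4243 CPM under DMSO. In Dux-Het Hspa1a (2.88-fold) and Hspb1 (1.89-fold) rose and the same 3 genes fell, with sums of 2684 to 2809 CPM under 4OHT and 3915 to 4176 CPM under DMSO. In Dux-KO none rose, and Hspa8 and Hsp90aa1 fell, with sums of 2429 to 2657 CPM under 4OHT and 3521 to 3764 CPM under DMSO. In Mettl3-KO Hspa8, Hsp90aa1 and Hspe1 fell and none rose.

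Fibroblast and feeder markers summed to 98.8 to 174 CPM under 4OHT and 46.4 to 76.0 CPM under DMSO in the main set, without overlap. Of 9 tested, Acta2 rose 3.04-fold, and Thy1 and Pdgfrb fell 2.53-fold and 1.47-fold. Of the other lists in the main set, 2 rose and 5 fell of 8 formative and primed epiblast markers, 2 rose and 1 fell of 9 trophectoderm markers, and 1 rose and 2 fell of 7 neural markers. In Mettl3-KO 3 of the 7 neural markers fell and none rose. The part of these marker lists in the members' results was not tested.

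The genes most like Fgf4 over the 22 libraries, by the root mean square difference in log2 CPM centred within each set, were Acsl1 (0.121), Tbc1d1 (0.143), Snrpa1 (0.152), Acaca (0.153) and Ccnd3 (0.153), of 5839 candidates. For Spry4 they were Enox1 (0.194), Epha2 (0.244), Rarg (0.256), Soga3 (0.259) and Aoah (0.259), of 2941. For Egr1 they were Trp53i11 (0.312), Lrrc75aos2 (0.321), Dll1 (0.326), Liph (0.344) and Ctc1 (0.348), of 3565. The SD of the gene itself on that scale was 0.471, 0.644 and 0.597 for Fgf4, Spry4 and Egr1.

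GGAC, a core form of the sequence that METTL3 methylates, occurred at 1.83 (Spred1) to 6.44 (Dusp6) per kb of the longest coding transcript of the members. The members' median was 4.75 per kb, beside 3.94 over 21405 genes, and 6 of the 10 were above that median. Fgf4 had 6.27 per kb and Spry4 2.10. A motif count is no measure of methylation, which these libraries do not give.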

How the data were processed

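RNA-seq was done on rRNA-depleted total RNA, and mm10 is the build, and STAR 2.7, RSEM, Bowtie2 and bcl2fastq the tools, listed without roles in the submitters' processing notes. The authors deposited whole-number counts per gene and repeat family for 22 libraries (43672 genes, 1077 repeat families), and the scale of the deposited normalized signal was used as an alternative only. Groups came from the sample titles, since other fields of the Dux libraries are shifted by 1 sample. Counts were fitted with edgeR 4.0.16 (R 4.3.3, limma 3.58.1; filterByExpr, TMM, glmQLFit, glmQLFTest), with Benjamini-Hochberg adjustment over all entries tested and a threshold of 0.05. The Dux libraries shared 1 fit. Standard errors are the log2 fold change over the root of F, and intervals are normal approximations at 95%. Levels are CPM with 1 TMM scaling over all libraries. Ratios of the unreplicated pair use a pseudocount of 0.5 CPM. Intervals of counts cover counting error only. Scripts were tested on simulated counts. Alternatives were other scalings, DESeq2 1.42.0, no filter, genes alone, a replicate block and each library left out. Replicates differed beyond counting noise in all 18 pairs (chi-square per degree of freedom 3.741 to 99.07). Repeat families held 16.39 to 28.78% of counts. Likeness candidates had a mean of at least 5 CPM and at least 1/2 of the gene's SD. The named pathway genes are, per list and comparison, up to 3 called genes with the largest change, of which 1 is not reported here. The members and lists were chosen with earlier results of these data known.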

Additional observations from a re-analysis of the deposited data

Results flagged for a closer look

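In the main Ythdc1-cKO set, 3 values stood apart from the other 3 libraries of their group by Dixon's 95% criterion. They were among 20 checks, each of 1 member in the 4OHT or the DMSO group of 4 libraries. Chance gives about 1 in 20 per check, but the checks reuse the same libraries and are not independent. Spry2 was high at 63.51 CPM in the first DMSO library. Fos was low at 18.86 CPM and Fosb at 42.25 CPM in the first 4OHT library. Fos and Fosb remained called without that library.

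The Ythdc1 effect differed from the Mettl3 effect, by a test of the difference, by -1.036 in log2 for Fgf4, 1.959 for Etv4, 1.595 for Etv5, 2.403 for Spry2, 2.635 for Spry4 and 1.31 for Dusp6. It differed from the mean Dux-set effect, in the comparison added after the values were seen, by 1.234 for Spry2, 1.417 for Spry4, -1.946 for Egr1, -4.044 for Fos and -5.508 for Fosb.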

How the results depend on the processing

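Of 1370 values of members under alternatives, 1319 kept their direction and side of the threshold, 17 lost the call, 34 gained it and 0 changed sign with a call. Without the filter on low counts, called entries numbered 4319 in Dux-Het (2738 with it), 4701 in Dux-KO (2890), 124 for Dux-KO against Dux-Het under DMSO (10) with 1 member, 272 under 4OHT (81) with 1 member, 28 for the difference of the Dux effects (0) and 1402 for the main set against the mean Dux effect (427). DESeq2 gave 17, 2 and 1050 entries for Dux-KO against Dux-Het under DMSO, the difference of the Dux effects and the main set against the mean Dux effect, and 1 member under 4OHT. Leaving out 1 library gave 9910 to 10931 entries and 9 to 10 members in the main set and 351 to 9716 entries and 1 to 5 members in the Mettl3 set, lowest without the first Mettl3-WT library and 1928 without the second. It gave 1254 to 2957 entries and 4 to 5 members in Dux-Het, lowest without its second 4OHT library, and 423 to 3645 entries and 3 to 5 members in Dux-KO, with 423 and 453 without its first and second 4OHT library and 779 without its first DMSO library. Dux-KO against Dux-Het gave 0 to 15 entries under DMSO, 30 to 97 under 4OHT and 0 to 1 for the difference of effects. The main set gave 5033 to 7295 entries and 6 to 8 members against Mettl3, and 172 to 1120 entries and 3 to 7 members against the mean Dux effect, lowest without the second Dux-KO 4OHT library and highest without the second Dux-KO DMSO library. The cause was not tested, except that fits without a library hold fewer samples; where 1 library is left in a group it is assumed to vary like the others.

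Libraries sharing a number in the main set correlated in their deviations at 0.31, 0.0852, 0.314 and 0.313. Each library correlated best with its own number, a hint of pairing from the data, but 1 correlation was under 0.1 and the labels give the number no meaning, so the numbers were not taken as pairing. With the replicate block, 11904 entries and 10 members were called there, Egr1 included (-0.24, adjusted p = 0.00734 by edgeR). The block gave 1 member (Fosb) for Dux-KO against Dux-Het under 4OHT and 830 entries for the main set against the mean Dux effect. A replicate block within each Dux genotype, added after seeing the data, gave 6098 entries in Dux-Het, 6801 in Dux-KO and 5 for their difference. It called Spry4 (0.47, adjusted p = 0.0144) and Spred1 (0.56, adjusted p = 0.00715, edgeR) in Dux-KO. Libraries sharing a number correlated at 0.536 in Dux-Het and 0.235 in Dux-KO.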
